A study of Mus musculus with 70 samples.

Results

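The phagocyte NADPH oxidase was followed through 5 genes, Cybb, Cyba, Ncf1, Ncf4 and Rac2, in 70 bulk libraries of mouse brain microglia. The 5 genes were taken by symbol from 5 count tables that together list 25806 genes, and each of the 5 was found in every table. They were selected on the counts of Cybb in tamoxifen and oil libraries of vehicle-treated Cre+ pups, which differed widely, so that comparison, and any other that uses its libraries, is described here without a test. Each library held 3' transcript counts (CEL-Seq2) from 500 cells sorted as CD11b+ CD45+ Ly6G- CD206-.

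The mice carried 1 allele of Cx3cr1CreERT2, a tamoxifen-dependent Cre recombinase placed in the gene for the fractalkine receptor, in either the Littman or the Jung line. Cre- mice had 2 intact Cx3cr1 alleles, so Cre and the loss of 1 Cx3cr1 allele cannot be told apart wherever Cre+ and Cre- mice are compared. Littman pups given UC2288, described in the labels as an inhibitor of CDKN1A function, and tamoxifen formed a Cre+ group of 5 libraries and a Cre- group of 3. Littman pups given the vehicle formed a Cre+ group with tamoxifen (4), a Cre+ group with oil (4) and a Cre- group with tamoxifen (5). The postnatal table held Littman tamoxifen pups, 5 Cre+ and 5 Cre-, and Jung pups that also carried 1 Rosa26YFP allele, 4 with tamoxifen and 5 with oil. A table titled BLZ, after BLZ945, an inhibitor of the CSF1 receptor, held Littman libraries, 4 with tamoxifen and 3 with oil, and Jung Rosa26YFP libraries, 4 with tamoxifen and 4 with oil. The adult tables held Littman libraries, 3 with tamoxifen and 4 with oil, and Jung libraries, 4 with tamoxifen and 4 with oil. The treatment labels give BLZ945 (100 mg/kg) to the BLZ-titled Littman mice, as their titles do, and none to the adult Littman mice. They also give BLZ945 to the adult-titled Jung mice and not to the BLZ-titled Jung mice, against the titles. Groups follow the titles, and those Jung sets may be exchanged. Pups were 8 or 14 days old and adults 6 to 15 weeks, but no label gives the age or the tamoxifen schedule of a single library. No label says that replicates came from separate animals either, so p-values measure the spread between these libraries.

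The NADPH oxidase of phagocytes moves electrons from NADPH across a membrane onto oxygen and so makes superoxide. Its membrane core, cytochrome b558, pairs the catalytic subunit gp91phox (NOX2, from Cybb) with p22phox (from Cyba), its partner in the membrane. In resting cells the organiser p47phox (from Ncf1) and p40phox (from Ncf4) wait in the cytosol with other subunits. On stimulation they move to the core together with a Rac GTPase, Rac2 in neutrophils, and the enzyme starts. Loss of a subunit causes chronic granulomatous disease in people, and in the brain microglia are the main cells known to use this oxidase. In human myeloid cells, transcription from the CYBB promoter is known to depend on PU.1, on interferon regulatory factors and on a CCAAT site.

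Because Cybb was absent from many libraries while the other 4 genes had counts in all of them, the 250 bases before its RefSeq transcription start are shown with those of Cyba and Ncf1. Windows of Ncf4 and Rac2 were not used here. All 3 lie on the minus strand of build GRCm38.p6, at chrX:9469325-9469574 for Cybb, chr8:122432941-122433190 for Cyba and chr5:134229626-134229875 for Ncf1, and are written 5′ to 3′ in the direction of transcription. Capitals mark matches, on either strand, to the interferon element core (GAAA, any 2 bases, GAAA), TTCNNNGAA (a STAT-type core), CCAAT and GAGGAA (a PU.1-type core).
Cybb: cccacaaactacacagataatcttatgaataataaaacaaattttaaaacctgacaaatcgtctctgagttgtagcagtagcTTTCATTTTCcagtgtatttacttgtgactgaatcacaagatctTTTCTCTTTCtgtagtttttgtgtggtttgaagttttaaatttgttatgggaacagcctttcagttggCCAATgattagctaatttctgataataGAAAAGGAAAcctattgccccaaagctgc
Cyba: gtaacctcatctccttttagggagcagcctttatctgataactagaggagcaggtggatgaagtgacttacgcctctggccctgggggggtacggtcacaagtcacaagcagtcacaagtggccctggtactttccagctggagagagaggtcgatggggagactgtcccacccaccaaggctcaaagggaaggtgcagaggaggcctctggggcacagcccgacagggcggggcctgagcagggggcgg
Ncf1: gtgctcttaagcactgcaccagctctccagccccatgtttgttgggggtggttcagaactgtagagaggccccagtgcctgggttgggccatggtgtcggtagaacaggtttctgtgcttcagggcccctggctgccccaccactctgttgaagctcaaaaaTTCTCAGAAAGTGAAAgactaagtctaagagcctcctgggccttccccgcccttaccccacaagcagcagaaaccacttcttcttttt
The Cybb window held 3 matches to the interferon element core, beginning 168, 124 and 29 bases before the start, and 1 match to CCAAT, 56 bases before it. The Ncf1 window held 1 match to the interferon element core, 82 bases before the start, which overlaps its 1 match to TTCNNNGAA. No letters of the Cyba window matched these 4 motifs. Among 32851 RefSeq promoter windows of the same length, 2.98% held the interferon element core at least once, 7.02% TTCNNNGAA, 33.8% CCAAT and 23.3% GAGGAA. These matches describe the letters only. GENCODE places the outermost start of Cybb 18447 bases upstream of the RefSeq start, so transcripts from other starts would have another promoter.

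Counts per library totalled 116083 to 450461, and a level of 3 counts, taken as the floor of detection, was worth 6.66 to 25.8 CPM (counts scaled to a common library total). Cx3cr1 averaged 1406 ± 110 CPM in postnatal Littman Cre+ libraries against 3905 ± 122 in Cre- libraries, and 1013 ± 455 in UC2288 Cre+ libraries against 3043 ± 571 in UC2288 Cre- libraries, in the order that the genotypes give. Cdkn1a, which encodes the cell cycle inhibitor p21, averaged 635 ± 146 CPM in UC2288 Cre+ against 102 ± 57.1 CPM in UC2288 Cre- libraries. All 10 microglia markers had counts in every group. Among them replicate 3 of the UC2288 Cre+ group stood apart: its summed microglia markers reached 19803 CPM, where the other 4 libraries of the group had 7701 to 8692, and its Cybb count was 1. The neutrophil genes S100a8 and S100a9 had 95 to 434 counts in sum in 4 libraries and 0 in the other 51 libraries of the tables that list both genes. The 4 were postnatal Littman Cre- replicate 2, UC2288 Cre- replicate 1, BLZ-titled Littman tamoxifen replicate 1 and BLZ-titled Littman oil replicate 3. Values without these libraries are given beside the Cybb results and, for the other subunit genes, where their tests are described. They are not given for marker and list genes.

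Cybb, the catalytic subunit gene (ENSMUSG00000015340, X:9435252-9487771, minus strand), was at or below 3 counts in 43 of the 70 libraries and reached 20 counts or more in 14 libraries, which fell in 5 groups. In the comparison that chose the genes, Cybb had 352, 590, 465 and 379 CPM in the 4 vehicle Cre+ tamoxifen libraries, against 5.06, 0, 0 and 0 CPM in the 4 vehicle Cre+ oil libraries. Each tamoxifen library lay above each oil library, as did 19.8% of the 4953 genes tested in that table, and nothing is read from it here because it made the choice. The pooled counts were 410 against 1, and the single count was in oil replicate 1. The monocyte list summed to 110 to 281 CPM in the tamoxifen and 0 to 21.7 CPM in the oil libraries, with counts for 6 and 2 of its 8 genes and Ly6c2 and Chil3 at 0 in both arms. The microglia list summed to 7494 to 8439 CPM with tamoxifen and 18150 to 21883 CPM with oil, and the border macrophage list to 82.7 to 185 CPM with tamoxifen and 291 to 362 CPM with oil. The neutrophil list summed to 200 to 266 CPM with tamoxifen and 107.09 to 132 CPM with oil. Of its 9 genes in the table only 2 had counts in each arm, Csf3r and Cxcr2. Mpo, Camp, Ngp, Ltf, Mmp8, S100a8 and S100a9 were at 0 in both arms. The part of these 4 lists in the Cybb difference was not tested. In these bulk samples a change in the RNA per cell cannot be told apart from a change in how many of the 500 cells expressed the gene.

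The UC2288 libraries took no part in that choice, and there Cybb rose in Cre+ pups. Cybb had 404, 288, 6.24, 359 and 356 CPM in the 5 UC2288 Cre+ tamoxifen libraries, against 4.61, 0 and 0 CPM in the 3 UC2288 Cre- tamoxifen libraries. Of the Cre+ libraries, 4 lay far above every Cre- library, while replicate 3 and the highest Cre- library held 1 Cybb count each, below the floor of 3, and were ordered only by their library totals. In CPM the groups did not overlap, as in the higher direction for 4.93% of the genes tested in the table. The fitted log2 fold change was 6.83 ± 0.864 (SE), with an edgeR quasi-likelihood adjusted p of 4.07e-07. That fit takes its filter and its spread from all 5 groups of the table, among them the vehicle libraries that chose the genes. A fit of the UC2288 groups alone gave 6.80 with an edgeR adjusted p of 0.000351. In both fits Cybb passed the filter only through Cre+ libraries, since no UC2288 Cre- library held more than 1 Cybb count. Pooled counts were 268 against 1, a ratio of 159 (exact 95% interval 28.3 to 6308, counting error only). Without Cre+ replicate 3 the log2 fold change was 7.13 (edgeR adjusted p 5.66e-12). Without Cre- replicate 1, the library with S100a8 and S100a9 and the only Cre- library with a Cybb count, the ratio was at least 31.9-fold with 3 counts assumed over the remaining Cre- libraries. Cybb was the only one of the 4 subunit genes tested that passed here, where 4% of 4953 genes did so and 3.51% were called higher and 0.485% lower. In limma voom the same contrast had an adjusted p of 0.142.

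Some other cell markers also differed in the UC2288 comparison. The monocyte list summed to 87.3 to 293 CPM in Cre+ libraries and 0 to 59.9 CPM in Cre- libraries, with counts for 6 of its 8 genes in Cre+ and 4 of 8 in Cre-. All Cre- counts of that list were in replicate 1, the library with S100a8 and S100a9. Most of that sum was Plac8, with 160 counts in Cre+ and 2 in Cre- libraries, and Plac8 was called higher (log2 fold change 5.33 ± 0.711, edgeR adjusted p 1.12e-06). Fn1 had 17 counts in Cre+ and 0 in Cre- libraries. The monocyte-defining gene Ly6c2 was at 0 in Cre+ libraries, and Ccr2 had 1 count in Cre+ and 2 in Cre- libraries. The microglia list summed to 7701 to 19803 CPM in Cre+ and 15557 to 19701 CPM in Cre- libraries. The 19803 CPM was Cre+ replicate 3, and the other Cre+ libraries had 7701 to 8692 CPM. The border macrophage list had counts for 4 of its 5 genes in the table in each group, with Cd163 at 0, and summed to 105 to 306 CPM in Cre+ and 304 to 597 CPM in Cre- libraries. Its gene Mrc1, which encodes the CD206 that the sort selected against, fell (log2 fold change -1.80 ± 0.306, edgeR adjusted p 8.24e-05). The neutrophil list had counts for 3 of its 9 genes in the table in Cre+ and 8 of 9 in Cre- libraries, and summed to 144 to 229 CPM in Cre+ and 80.6 to 825 CPM in Cre- libraries. The 825 CPM was Cre- replicate 1, and the other Cre- libraries had 80.6 and 164 CPM. The part of these markers in the Cybb difference was not tested.

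**Figure D1:**
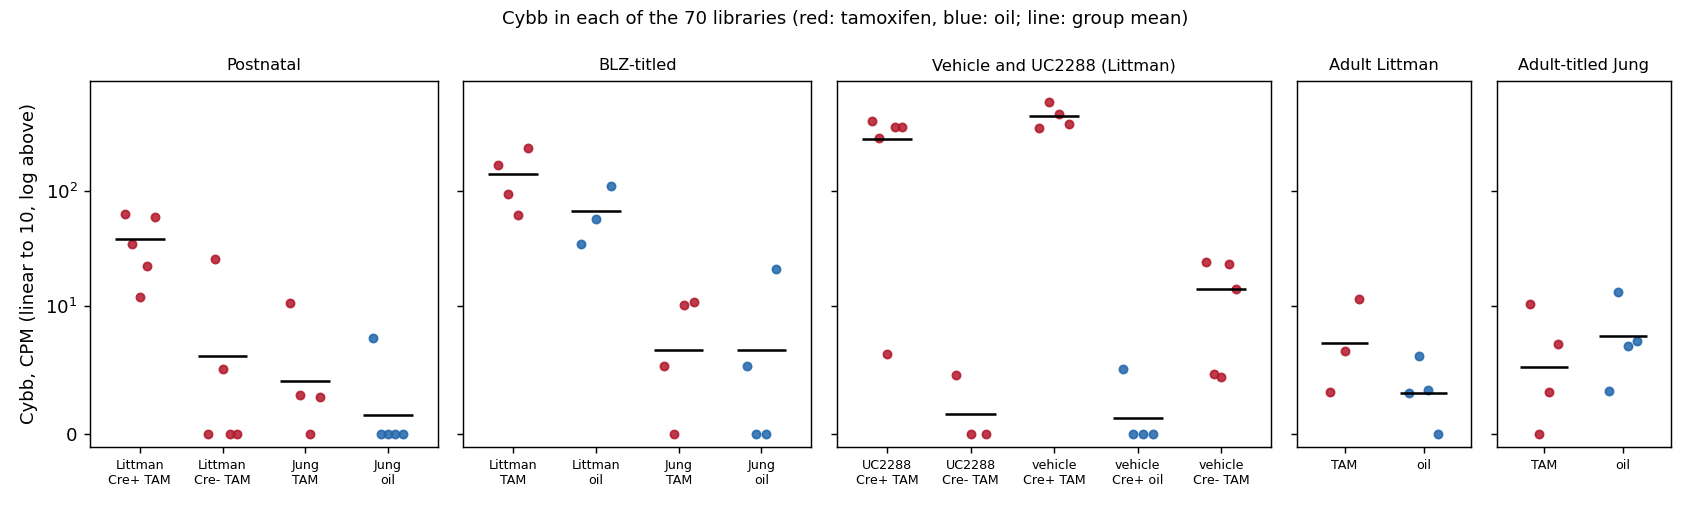
Cybb level in CPM (axis linear up to 10, logarithmic above) for every library, in a panel per count table; points are libraries, red for tamoxifen and blue for oil, and lines are group means. The vehicle Cre+ tamoxifen group averages 446 CPM and the UC2288 Cre+ tamoxifen group 283 CPM with replicate 3 at 6.24 CPM, while both adult tables stay below 14 CPM.

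Within UC2288 and vehicle pups that shared a genotype, the Cybb values are given side by side. In Cre+ tamoxifen pups Cybb averaged 283 ± 160 CPM (SD, n = 5) with UC2288 and 446 ± 107.02 CPM (n = 4) with vehicle, a fitted log2 difference of -0.59 ± 0.331, and the groups overlapped. Leaving out replicate 3 of the UC2288 group moved that difference to -0.29. No test is given because the vehicle libraries chose the genes. In Cre- tamoxifen pups Cybb had 1, 0 and 0 counts with UC2288, against 4, 1, 1, 4 and 3 counts with vehicle. The ratio of pooled counts was 0.140 (exact 95% interval 0.0033 to 0.933, counting error only), and edgeR gave a log2 fold change of -2.58 ± 1.45 with an adjusted p of 0.557. With at most 4 counts in a Cre- library, Cybb passed the filter of that fit only through the Cre+ groups of the table. Those include the vehicle libraries that chose the genes. Without UC2288 Cre- replicate 1 the UC2288 libraries were at 0, and the fitted value was -4.50 (edgeR adjusted p 0.994), which is no bound. None of the 4 subunit genes tested was called in this Cre- comparison, in which 0.0202% of genes were called. None had an unadjusted p under 0.05, and DESeq2 and limma voom called 0.

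In the postnatal table Cybb was higher in most Littman Cre+ libraries, but too low for the filter on low counts. Cybb had 63.4, 34.6, 12.1, 22.2 and 59.6 CPM in the 5 Cre+ tamoxifen libraries, against 0, 25.5, 5.11, 0 and 0 CPM in the 5 Cre- tamoxifen libraries. The groups overlapped through Cre- replicate 2, the library with S100a8 and S100a9. The means were 38.4 ± 22.6 and 6.11 ± 11.0 CPM (SD, n = 5 each). An exact two-sided permutation test of the difference in means gave p = 0.0238, where 0.00794 is the smallest these groups allow, and 0.179 after adjustment over the 10 such tests run on subunit genes below the filter. With the other values as they were, that adjusted p could not have fallen under 0.05, so it decides nothing. Without Cre- replicate 2 the pooled counts were 82 against 2, a ratio of 28.8 (exact 95% interval 7.73 to 242, counting error only), and with it 82 against 12, a ratio of 6.07 (3.29 to 12.2). When edgeR was run with no filter, the log2 fold change was 2.58 with an adjusted p of 2.33e-07, and in the 10 unfiltered fits that each left out 1 library the adjusted p ran from 2.89e-11 to 8.52e-05. The call in this table therefore depends on the filter.

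Here too other markers differed. The monocyte list summed to 23.9 to 102 CPM in Cre+ libraries and 2.56 to 53.5 CPM in Cre- libraries, with counts for 3 of its 7 genes in the table in Cre+ and 6 of 7 in Cre-. The 53.5 CPM was Cre- replicate 2, the library with S100a8 and S100a9, and the other Cre- libraries had 2.56 to 21.3 CPM. Fn1 had 38 counts in Cre+ and 1 in Cre- libraries, and Ccr2 13 and 17. Plac8 was called higher (39.0 ± 20.1 against 8.17 ± 5.99 CPM, edgeR adjusted p 0.000207), while Ly6c2, F13a1 and Chil3 were at 0 in the Cre+ libraries. Of the 10 microglia markers, 6 were called lower and 1 higher, where 3.24% of 7076 genes were called lower and 4.56% higher. Among the 6 was Cx3cr1, the gene in which the Cre allele of the Cre+ mice lies. Within the neutrophil list Csf3r was called higher (edgeR adjusted p 0.0134). Csf3r was the only neutrophil gene tested; of the 7 in the table, 3 had counts in Cre+ libraries and 7 in Cre- libraries. That list summed to 360 to 619 CPM in Cre+ and 354 to 1619 CPM in Cre- libraries. The 1619 CPM was also Cre- replicate 2, and the other Cre- libraries had 354 to 445 CPM. The border macrophage list had counts for 4 of its 4 genes in the table in Cre+ and 3 of 4 in Cre- libraries, with Ms4a7 at 0 in Cre-, and summed to 106 to 289 CPM in Cre+ and 87.8 to 128 CPM in Cre- libraries. Its gene Mrc1 rose here (151 ± 58.8 against 103 ± 14.4 CPM, edgeR adjusted p 0.0297), the opposite direction to the UC2288 comparison. The astrocyte gene Slc1a3 (edgeR adjusted p 0.0430) and the endothelial gene Pecam1 (edgeR adjusted p 0.00204) fell. Their part in the Cybb difference was not tested.

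Cybb was near the floor in Jung pups, at 4, 1, 0 and 1 counts with tamoxifen against 3, 0, 0, 0 and 0 counts with oil. A difference of a few counts was not detectable at this depth: the pooled ratio was 2.67 with an exact 95% interval of 0.570 to 16.5, and the exact permutation p was 0.405. Whether the Cre effect in Littman pups exceeded the tamoxifen effect in Jung pups was tested for Cybb in the unfiltered edgeR fit, which gave a log2 difference of 1.33 and an adjusted p of 1.000. With 1 library left out at a time that difference ran from -1.22 to 3.33, so its direction was not stable. The test compares a Cre effect with a tamoxifen effect, and says nothing of Cybb levels between the lines: those were 12.1 to 63.4 CPM in Littman Cre+ and 0 to 10.6 CPM in Jung tamoxifen libraries. No subunit gene was called in that difference test, where 0.353% of genes were called in edgeR with the filter; 1 of the 3 tested, Cyba, had an unadjusted p under 0.05, and DESeq2 and limma voom called 0.

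The BLZ-titled Littman libraries had Cybb counts in both arms. Cybb had 167, 93.2, 62.3 and 234 CPM with tamoxifen, against 34.3, 56.8 and 111 CPM with oil. The arms overlapped, and the log2 fold change of 1.01 ± 0.408 had an edgeR adjusted p of 0.621. Without the 2 libraries with S100a8 and S100a9 it was 1.47 (edgeR adjusted p 0.689). Tamoxifen replicate 1 and oil replicate 3 carried the S100a8 and S100a9 counts, and they also held 167 and 111 CPM of Cybb. The monocyte list had counts for 7 of 8 genes in each arm. Its sums were 21.2 to 242 CPM with tamoxifen and 34.3 to 159 CPM with oil. The highest sums came mostly from a single gene. Fn1 had 49 of the 55 counts in tamoxifen replicate 4, and Chil3 30 of the 36 counts in oil replicate 3. The neutrophil list summed to 339 to 2982 CPM with tamoxifen and 315 to 3358 CPM with oil. The microglia list separated the arms, at 11294 to 20188 CPM with tamoxifen and 21026 to 21821 CPM with oil, and tamoxifen replicate 4 had the lowest microglia sum and the highest Cybb. The part of these lists in the Cybb values was not tested. In the BLZ-titled Jung libraries Cybb had 1, 0, 2 and 2 counts with tamoxifen and 1, 0, 0 and 4 with oil. The tamoxifen effects in the BLZ-titled lines differed by a log2 value of 0.90 ± 1.29 for Cybb (edgeR adjusted p 0.895). Without the 2 libraries with S100a8 and S100a9 that value was 1.37 (edgeR adjusted p 0.905). With at most 4 counts in a Jung library, Cybb passed the filter of the fit only through the Littman groups. By treatment label only the Littman mice of that table had BLZ945, so line and BLZ945 cannot be told apart there.

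In the adult tables Cybb stayed between 0 and 4 counts in each library. Adult Littman libraries had 1, 2 and 4 counts with tamoxifen and 1, 2, 1 and 0 counts with oil (exact permutation p = 0.171). Adult-titled Jung libraries had 3, 0, 1 and 2 counts with tamoxifen and 1, 4, 2 and 2 counts with oil (exact permutation p = 0.457). Over the 17 groups, ordered by mean Cybb, the highest 5 were vehicle Cre+ tamoxifen, UC2288 Cre+ tamoxifen, BLZ-titled Littman tamoxifen, BLZ-titled Littman oil and postnatal Littman Cre+ at 446, 283, 139, 67.3 and 38.4 CPM, followed by vehicle Cre- tamoxifen at 14.0 CPM. The remaining 11 groups averaged 1.26 to 7.66 CPM. Each pair of neighbours in that order overlapped in range. Levels from different tables stand side by side only as CPM of each library's own total.

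Cyba, which encodes p22phox (ENSMUSG00000006519, 8:122424776-122432930, minus strand), had counts in every library, 22 to 208. It was not called in any tested comparison. Cyba had 524, 800, 537, 846 and 533 CPM in the UC2288 Cre+ libraries and 360, 474 and 640 CPM in the UC2288 Cre- libraries, and the groups overlapped (log2 fold change 0.39 ± 0.247, edgeR adjusted p 0.537; 0.17 and 0.899 without Cre- replicate 1). In the vehicle pups Cyba averaged 535 ± 169 CPM with tamoxifen and 542 ± 40.8 CPM with oil (SD, n = 4 each). In the postnatal table Cyba averaged 215 ± 52.6 CPM in Littman Cre+ libraries and 177 ± 19.6 in Cre- libraries, with a log2 fold change of 0.33 ± 0.136 and an edgeR adjusted p of 0.141. Without Cre+ replicate 2, at 141 CPM the lowest of its group, that adjusted p was 0.0170. Without Cre- replicate 2, the library with S100a8 and S100a9, the log2 fold change was 0.38 with an edgeR adjusted p of 0.117. Cyba overlaps Gm20388 on the other strand, and the strand setting of the counting is not given in the sources used here, so reads of the pair could not be told apart.

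Ncf1, which encodes the organiser p47phox (ENSMUSG00000015950, 5:134220053-134229625, minus strand), held 20 to 278 counts per library. Ncf1 had 348, 470, 337, 382 and 438 CPM in the UC2288 Cre+ libraries and 438, 284 and 242 CPM in the UC2288 Cre- libraries, which overlapped (log2 fold change 0.31 ± 0.244, edgeR adjusted p 0.649; 0.58 and 0.427 without Cre- replicate 1). In vehicle Cre+ pups, described only, Ncf1 had 433, 396, 525.8 and 331 CPM with tamoxifen and 248, 362, 301 and 139 CPM with oil, again overlapping. Its vehicle Cre+ tamoxifen libraries did not overlap the vehicle Cre- tamoxifen libraries, at 157 to 294 CPM, as was true in the higher direction of 17.7% of genes there. Postnatal Littman libraries averaged 513 ± 19.0 CPM in Cre+ and 508 ± 106 CPM in Cre- (log2 fold change 0.060 ± 0.102, edgeR adjusted p 0.834). Ncf1 overlaps Gtf2ird2 on the other strand, with the same limit on strand.

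Ncf4, which encodes p40phox (ENSMUSG00000071715, 15:78244801-78262580, plus strand), was a low gene with 1 to 20 counts per library. In the UC2288 pups Ncf4 had 44.0, 37.2, 25.0, 59.9 and 31.7 CPM in Cre+ libraries and 4.61, 17.2 and 9.48 CPM in Cre- libraries. These groups did not overlap, as for 4.93% of genes in that direction, and the pooled counts were 36 against 5, a ratio of 4.27 (exact 95% interval 1.67 to 14.0). Ncf4 did not pass the filter there. Its exact two-sided permutation test gave p = 0.0357, adjusted to 0.179 over the 10 such tests, with 0.0179 the smallest possible, and edgeR without the filter gave an adjusted p of 0.140. Without Cre- replicate 1 the exact permutation p was 0.0952. In the BLZ-titled Littman libraries Ncf4 pointed the other way, with 51.5, 29.6, 17.8 and 30.8 CPM with tamoxifen and 60.1, 87.4 and 44.2 CPM with oil (log2 fold change -1.004 ± 0.372, edgeR adjusted p 0.578; -1.50 and 0.543 without the 2 libraries with S100a8 and S100a9). The BLZ-titled Littman difference did not pass its edgeR test after adjustment. For the UC2288 difference the adjusted permutation test could not have passed at these group sizes, so it decides nothing, and the unfiltered edgeR fit did not call it.

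Rac2, the GTPase gene (ENSMUSG00000033220, 15:78559167-78572783, minus strand), lies 296587 bases from Ncf4 on the same chromosome and held 12 to 94 counts per library. Rac2 had 184, 368, 262, 195 and 222 CPM in the UC2288 Cre+ libraries and 212, 129 and 242 CPM in the UC2288 Cre- libraries, which overlapped (log2 fold change 0.31 ± 0.260, edgeR adjusted p 0.673; 0.32 and 0.812 without Cre- replicate 1). Postnatal Littman libraries had 204, 154, 210, 209 and 183 CPM in Cre+ and 155, 166, 146, 162 and 155 CPM in Cre-, so 4 of the 5 Cre+ libraries lay above every Cre- library. The log2 fold change of 0.34 ± 0.124 had an edgeR adjusted p of 0.0873, and without Cre+ replicate 2 it was 0.0273. Without Cre- replicate 2, the library with S100a8 and S100a9, the log2 fold change was 0.36 with an edgeR adjusted p of 0.100. In vehicle Cre+ pups Rac2 averaged 179 ± 35.8 CPM with tamoxifen and 195 ± 11.7 CPM with oil (SD, n = 4 each).

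**Figure D2:**
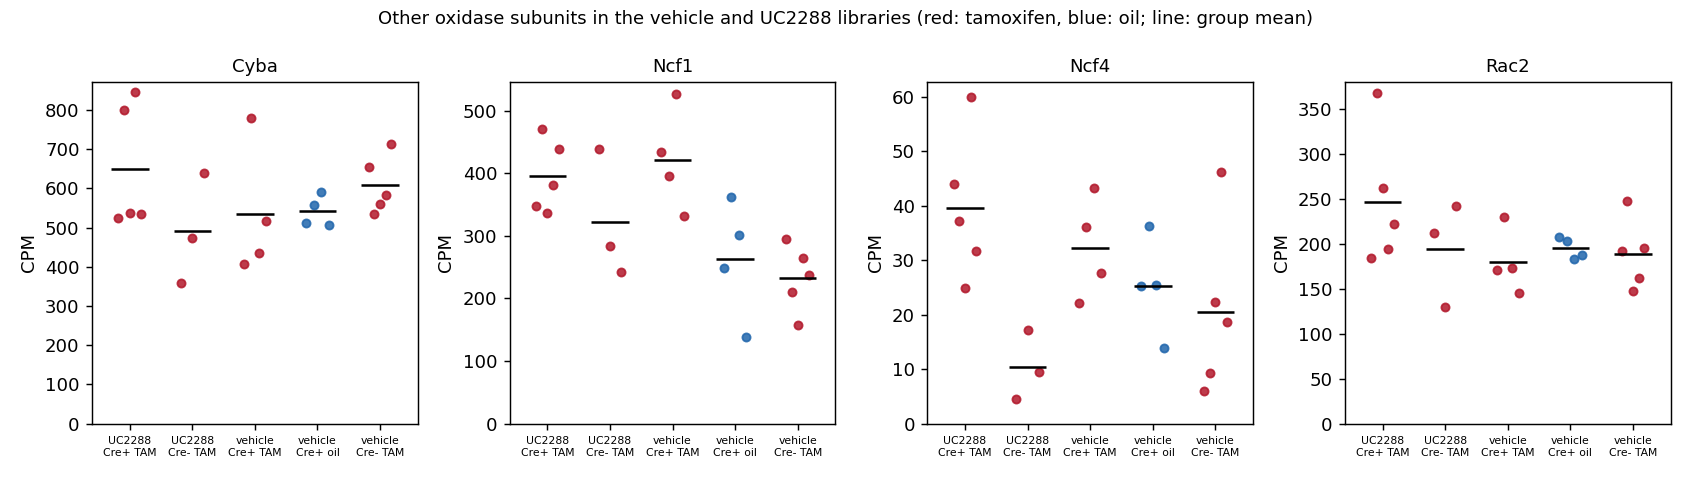
CPM of Cyba, Ncf1, Ncf4 and Rac2 in the 21 vehicle and UC2288 libraries; points are libraries, red for tamoxifen and blue for oil, and lines are group means. Ranges overlap between UC2288 Cre+ and Cre- libraries for Cyba, Ncf1 and Rac2, while the Ncf4 libraries range from 25.0 to 59.9 CPM in UC2288 Cre+ and from 4.61 to 17.2 CPM in UC2288 Cre-.

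Across all 10 tested comparisons, Cybb in the UC2288 pups was the only subunit gene called with the filter. It passed that filter only through Cre+ libraries. In postnatal Littman Cre+ against Cre- pups, where 7.8% of 7076 genes were called (4.56% higher and 3.24% lower), none of the 3 subunit genes tested was called; 2 of the 3, Cyba and Rac2, had an unadjusted p under 0.05, and DESeq2 and limma voom called 0. In the 10 fits that each left out 1 library, between 0 and 2 of them were called, with the 2 calls coming when Cre+ replicate 2 was left out. In Jung pups with tamoxifen against oil, where 0.0848% of genes were called, 0 of 3 had an unadjusted p under 0.05 and no tool called any. BLZ-titled Littman tamoxifen against oil, where 0.0581% of genes were called, had 2 of 5 with an unadjusted p under 0.05, Cybb and Ncf4. In BLZ-titled Jung libraries and in the difference between the BLZ-titled lines, where 0% of genes were called, 0 of 5 had an unadjusted p under 0.05. Cybb was among those 5 only because the Littman groups carried it past the filter. In adult Littman libraries (0.0181% of genes called) and adult-titled Jung libraries (0% called), 0 of 3 had an unadjusted p under 0.05. DESeq2 and limma voom called 0 subunit genes in each of these last 6 comparisons.

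**Figure D3:**
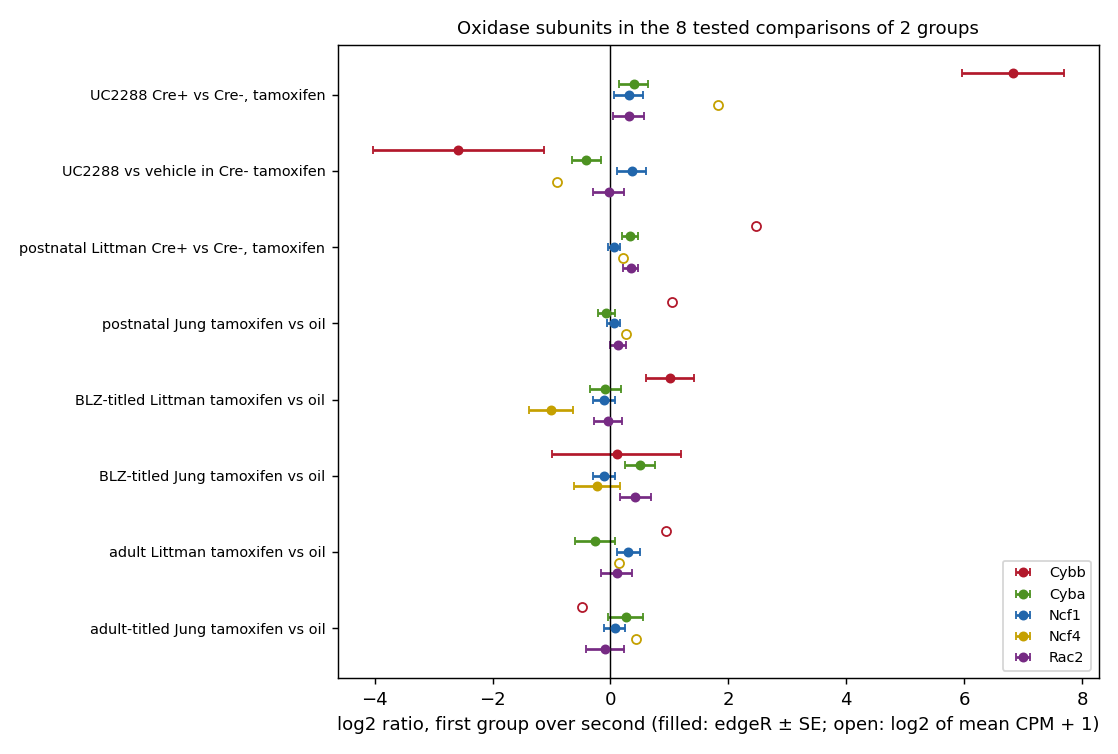
Log2 ratio of each subunit gene in the 8 tested comparisons of 2 groups, first group over second; filled points with bars are edgeR log2 fold changes ± SE, and open points, for genes below the filter, are the log2 ratio of group means after adding 1 CPM. Cybb at 6.83 in the UC2288 Cre+ against Cre- comparison stands farthest from 0.

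The genes that assemble with, trigger or buffer the oxidase were counted by list. Of 18 assembly and regulation genes, among them Cybc1 (a chaperone that cytochrome b558 needs) and Rac1, all 18 were tested in the UC2288 Cre+ against Cre- comparison and 0 were called, with a median log2 fold change of 0.08 where all tested genes had 0.0057. In the postnatal Littman comparison 17 were tested and only Cybc1 was called: it fell (75.6 ± 19.7 against 110 ± 11.6 CPM, log2 fold change -0.50 ± 0.160, edgeR adjusted p 0.0407). Of 7 genes of other NADPH oxidases, 2 were in each of these tables, and both were too low for a test.

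Receptors that trigger the oxidase formed a list of 13. In the UC2288 comparison 2 of 9 tested rose, the Fc receptor gene Fcgr1 (515 ± 96.9 against 243 ± 43.7 CPM, log2 fold change 1.10 ± 0.242, edgeR adjusted p 0.0032) and the lipoprotein sensor gene Tlr2 (152 ± 72.7 against 66.5 ± 21.7 CPM, edgeR adjusted p 0.0422). The median log2 fold change of the 9 was 0.36, and 3.51% of all genes tested there were called higher. In postnatal Littman pups 5 of 11 tested were called higher and none lower, with a median of 0.26 against -0.0011 over all genes. Of all genes tested there, 4.56% were called higher and 3.24% lower. The 4 with the lowest adjusted p were Tlr2 (85.4 ± 11.0 against 52.3 ± 15.9 CPM), the integrin chain gene Itgb2 (491 ± 45.2 against 402 ± 32.0 CPM), and the signalling adaptor genes Fcer1g (1161 ± 42.7 against 984 ± 155 CPM) and Tyrobp (1563 ± 167 against 1347 ± 129 CPM), each first in Cre+ and then in Cre- libraries. Their edgeR adjusted p-values ran from 0.0176 to 0.0430.

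Of 8 factors known to act on Cybb transcription, all 8 were tested in postnatal Littman pups and 7 in the UC2288 comparison. Cebpb, which encodes a factor of myeloid differentiation, rose in postnatal Littman pups (190 ± 40.7 CPM in Cre+ against 137 ± 38.8 CPM in Cre- libraries, edgeR adjusted p 0.0267). List medians of the log2 fold change were 0.30 in the UC2288 and 0.094 in the postnatal comparison.

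Of the genes that remove superoxide and peroxide, Prdx5, a peroxiredoxin, rose in both comparisons: 290 ± 87.9 against 129 ± 20.3 CPM in UC2288 Cre+ and Cre- libraries (edgeR adjusted p 0.00999, 1 call among 10 tested), and 296 ± 24.5 against 230 ± 38.4 CPM in postnatal Littman Cre+ and Cre- libraries (edgeR adjusted p 0.0151). Postnatal calls also included the cytosolic superoxide dismutase gene Sod1 (257 ± 47.0 against 168 ± 29.4 CPM, edgeR adjusted p 0.000576) and Prdx1 (271 ± 72.2 against 203 ± 25.0 CPM, edgeR adjusted p 0.0203). These were 3 of 14 tested, with none lower, and with a list median log2 fold change of 0.27 in the UC2288 and 0.13 in the postnatal comparison. No gene of these 5 lists was called in the other 8 tested comparisons. Since 4% of all genes were called in the UC2288 and 7.8% in the postnatal comparison, and the lists were chosen with earlier results known, the counts describe the lists and nothing more.

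**Figure D4:**
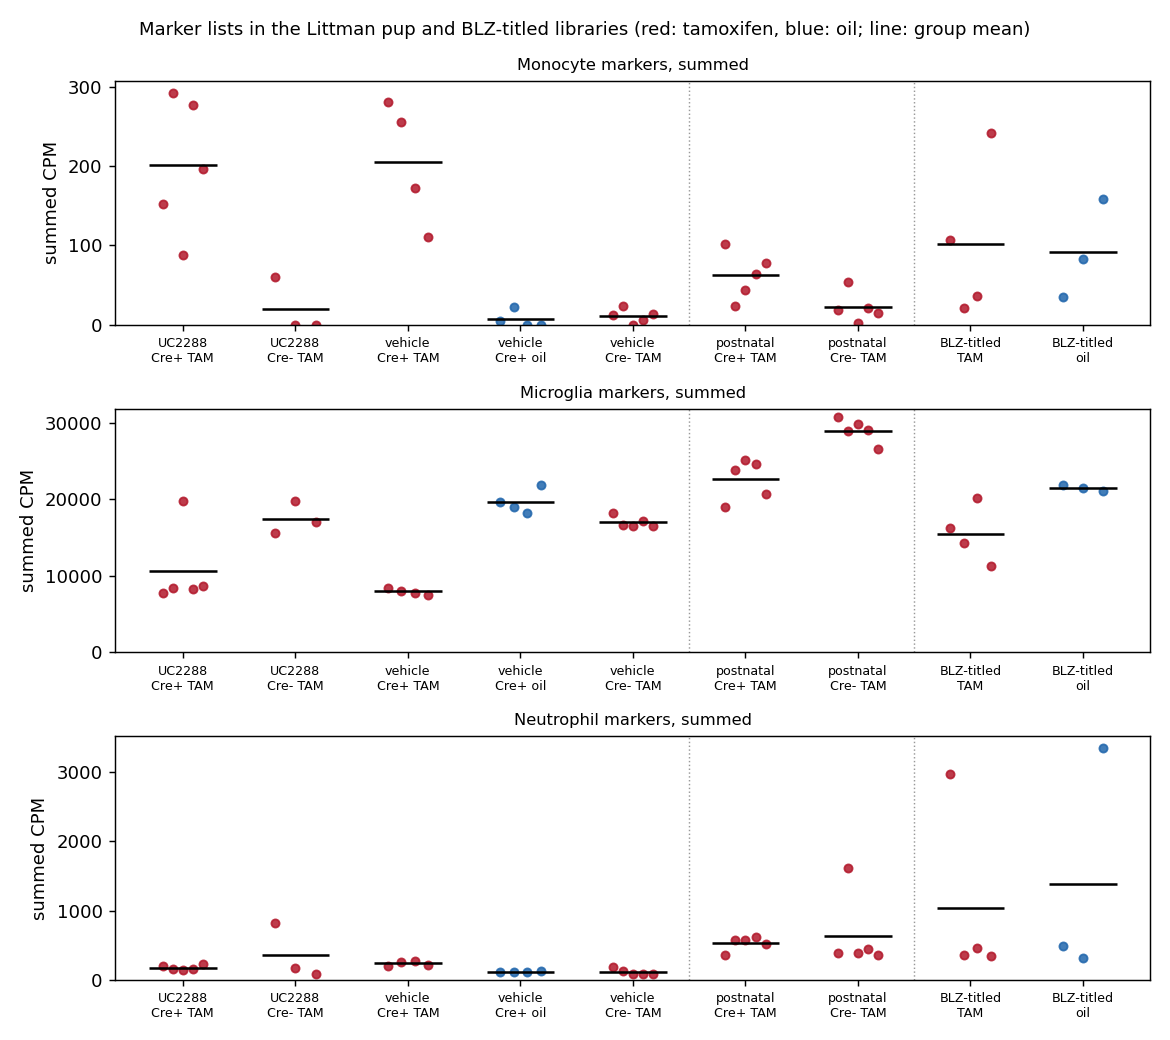
Summed CPM of the monocyte, microglia and neutrophil marker lists in the Littman pup and BLZ-titled libraries; points are libraries, red for tamoxifen and blue for oil, lines are group means, and dotted lines part the count tables. Monocyte marker sums run from 87.3 to 293 CPM in UC2288 Cre+ against 0 to 59.9 CPM in UC2288 Cre- libraries. Of the latter only replicate 1 is above 0. In the neutrophil panel 4 libraries stand out.

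Patterns over the 17 groups were compared as the log2 of each group's mean CPM plus 1, centred on the groups of its table, over 5304 genes with a mean of at least 20 CPM in each table. Among the 5 genes most like Cybb were Sp100 (a nuclear body protein, Pearson r 0.96), Tap1 (a peptide transporter of antigen presentation, 0.95), Slamf9 (a SLAM family receptor, 0.95) and Xaf1 (an inhibitor of XIAP, 0.95). Sp100, for example, averaged 377 ± 55.4 CPM in vehicle Cre+ tamoxifen libraries, 13.2 ± 11.7 in vehicle Cre+ oil libraries, 272 ± 95.5 in UC2288 Cre+ and 6.32 ± 10.9 in UC2288 Cre- libraries. Ncf1 came 337th with r 0.63, Rac2 516th with 0.55 and Cyba 783rd with 0.45, while Ncf4, too low to be ranked, had 0.61. Points share libraries and tables, and a few groups with high Cybb weigh heavily. The 17 groups include the vehicle Cre+ groups whose libraries chose the genes. The ranks and coefficients are therefore descriptions without a p.

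Across the 70 libraries, after each group's mean was taken off, Cyba and Rac2 varied together with a Pearson r of 0.60, positive in all 5 tables and between 0.32 and 0.87 in each. Cyba and Ncf4 had r 0.26, also positive in all 5 tables (0.10 to 0.60). The other 8 pairs had r between -0.22 and 0.23 and differed widely between tables, from -0.75 for Ncf1 and Rac2 to 0.77 for Cybb and Ncf1 in single tables. Cybb had r of -0.10 with Cyba, its partner in cytochrome b558. Values within a library share its depth, and Cybb and Ncf4 rest on few counts, so the low coefficients cannot be read as independence.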

How the data were processed

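Deposited values are unnormalised gene counts, which the labels' protocols tie to molecular identifiers. The submitters' notes list HISAT2, featureCounts, Trim Galore and UMI-tools with build GRCm38. No source used here gives versions, the annotation or the strand setting of the counting. Every count column matched a sample title, and 0 were left out.

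Printed levels are CPM of column totals, mean ± SD. Each table was fitted on its own in edgeR 4.0.16 (R 4.3.3): TMM factors, filterByExpr by group, a joint quasi-likelihood fit of all groups, p-values adjusted by Benjamini-Hochberg across the genes tested, calls at adjusted p under 0.05, fold changes as log2. The script was tested on simulated data. Subunit genes below the filter, which the planned fit could not test, had exact two-sided permutation tests of mean CPM, adjusted over 10 tests. At these group sizes, and with the other values as they were, none of them could have reached an adjusted p under 0.05. Ratios against 1 to 12 counts have exact intervals at 95% confidence. Named are the 5 subunit genes, 2 checks, and at most 4 called genes of each list and comparison; monocyte genes beyond the called ones were named after their values were seen. Promoter windows are from RefSeq (GRCm38.p6), gene positions from GENCODE. Genes and lists were chosen with earlier results of these data known. Among 113 pairs of libraries within groups, 0 were identical, and the lowest chi-square per degree of freedom was 1.09. Alternatives used DESeq2 1.42.0, limma voom 3.58.1, other scaling, no filter, sex and left-out libraries. A few genes of the lists are not reported here by name.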

Additional observations from a re-analysis of the deposited data

Results flagged for a closer look

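Of 70 sets of 4 or 5 libraries (each subunit gene in each such group), 5 held a library far from the rest of its group; chance alone flags about 1 set in 20. Cybb stood out in postnatal Littman Cre- replicate 2, at 25.5 CPM where the other 4 libraries had 0 to 5.11 CPM; this library also held S100a8 and S100a9. Cybb also stood out in postnatal Jung oil replicate 1 (7.50 CPM) and vehicle Cre+ oil replicate 1 (5.06 CPM), where the other libraries of each group had 0 counts. With the others at 0, any lone count meets this criterion: these were 3 counts and 1 count, at or below the floor of 3. Cyba was low in adult Littman oil replicate 3, at 76.3 CPM where the others had 301 to 340 CPM, and Rac2 was lowest in that library too, at 58.9 CPM. Ncf1 was low in BLZ-titled Littman tamoxifen replicate 3, at 334 CPM where the others had 416 to 432 CPM.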

How the results depend on the processing

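Cybb in UC2288 Cre+ against Cre- pups kept its direction in 17 alternatives and its call in 16, with log2 fold changes of 5.47 to 8.74; limma voom (5.47, adjusted p 0.142) left 0 subunit genes called there. Without the filter, postnatal Littman Cybb passed (log2 fold change 2.58) and 1 subunit gene was called; with 1 library left out, 0 to 2 were called. Replicate numbers did not pair the libraries: of 49 same-numbered pairs 6 had a correlation over 0.1, and the values ran from -0.36 to 0.34. With the replicate block, Cybb in the UC2288 comparison was 6.499, and Cyba turned to 0.013 in adult Littman and to 0.0041 in postnatal Jung libraries; no call changed. The other changes of direction concern values that were not called. Rac2 in BLZ-titled Littman libraries turned to 0.0035 on column totals, 0.18 without the S100a8 and S100a9 libraries (chosen after seeing the data) and 0.074 with sex as a covariate, and Rac2 in UC2288 against vehicle Cre- libraries to 0.076 on column totals. With 1 library left out at a time, log2 values ran from -0.15 to 7.39e-05 for Cyba in postnatal Jung, from -0.34 to 1.67 for Cybb in BLZ-titled Jung, from -0.66 to 1.45 for the Cybb difference between the BLZ-titled lines, and from -1.22 to 3.33 for that between postnatal lines. They ran from -0.072 to 0.14 for Ncf1 in adult-titled Jung, -0.033 to 0.091 in postnatal Jung and -0.0016 to 0.17 in postnatal Littman libraries, and from -0.16 to 0.43 for Ncf4 in adult Littman libraries. For Rac2 they ran from -0.14 to 0.10 in BLZ-titled Littman, -0.31 to 0.18 in UC2288 against vehicle Cre-, -0.085 to 0.22 in adult Littman, -0.35 to 0.23 in adult-titled Jung and -0.020 to 0.23 in postnatal Jung libraries. The cause of these changes was not tested. Depth limits Cybb and Ncf4 most, since 3 counts are worth up to 25.8 CPM.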
